A study of Saccharomyces cerevisiae with 90 samples.

Results

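The arrays described here compare yeast grown in SG medium with yeast grown in SD medium, both liquid, in the genotype labelled PGAL1-FLO11. They are the 3 SG liquid arrays and the 3 SD liquid arrays whose labels carry that genotype, 6 of the 90 Affymetrix arrays in the series. SD and SG are read as the synthetic media with glucose and with galactose, although the labels give only the abbreviations. The labels give 6 hours of growth for these arrays and for the comparison groups below, and total RNA was hybridised. PGAL1-FLO11 names a strain whose FLO11 gene, which encodes a cell-surface mucin needed for adhesion, is placed under the galactose-inducible GAL1 promoter. The labels name no other allele or marker and no parent strain, and all 6 arrays carry this 1 construct. Replicates are lettered A, B and C, and nothing says that they were separate cultures, so the tests measure the spread between arrays, which may be technical. The comparison groups used below are wild-type in SG and SD liquid, and wild-type and PGAL1-FLO11 in SG and SD agar. For FLO11 the flo11 knockout in SD liquid is also used. Each of these groups has 3 arrays.

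Yeast prefers glucose. While glucose is present, Mig1 and related repressors keep genes for other carbon sources silent, and the Rgt2 and Snf3 sensors set which hexose transporters are made. Galactose enters through the permease Gal2, binds the sensor Gal3, and so frees the activator Gal4 from the inhibitor Gal80, after which the Leloir pathway enzymes convert galactose to glucose-phosphate. Galactose represses far less than glucose does, so respiration and the use of ethanol and fat are only partly shut off.

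Values are log2 expression levels, and a log2 change is the SG mean minus the SD mean of 3 arrays each, given ± its standard error. A gene "rose" or "fell" where limma's p, adjusted by the Benjamini-Hochberg method over 5449 genes, was under 0.05 and the change was at least 2-fold. Values of replicates are given in the order A, B and C. Probe sets whose gene is not in the S. cerevisiae annotation served as blanks, and the 95th percentile of their values was the background limit of an array. That limit was 5.89 to 5.92 on the 3 SG arrays and 6.06 to 6.22 on the 3 SD arrays. A gene under the limit on all arrays of a group has only a bound there, so its difference is given as "at least N-fold" with the fitted adjusted p, which was 6.72e-09 or lower for every gene named with a bound. The scale also ends at the top. The brightest 1% of values began between 14.87 and 14.97 on each array and the highest value was 15.63, so changes that end near 15 may be understated. Measurements are per amount of RNA hybridised, so fewer cells of a kind and less RNA per cell cannot be told apart.

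The gene named in the genotype was examined first. FLO11 (YIR019C) read 15.22, 15.16 and 15.18 in SG and 11.07, 10.52 and 10.33 in SD. The SG and SD values did not overlap, and the log2 change was 4.55 ± 0.29 (limma adjusted p = 1.67e-21). GAL1, whose native gene carries the same promoter, read 15.33, 15.32 and 15.30 in SG and 8.69, 8.26 and 8.05 in SD, a change of 6.99 ± 0.25. In SD liquid FLO11 averaged 10.64 ± 0.38 (standard deviation, n = 3), against 10.41 ± 0.16 in wild-type SD liquid and 6.60 ± 0.60 in the flo11 knockout in SD liquid. The difference between PGAL1-FLO11 and wild-type in SD liquid was 0.23 ± 0.29 (adjusted p = 0.613). On SD agar FLO11 averaged 14.50 ± 0.11 on the arrays labelled PGAL1-FLO11, where GAL1 averaged 8.0 ± 0.12. FLO11 therefore went against the label on both SD media, being near its wild-type level in liquid and high on agar while GAL1 was low. In SG liquid FLO11 was near the top of the scale in both genotypes, 15.19 ± 0.03 under the label PGAL1-FLO11 and 14.73 ± 0.32 in wild-type, a difference of 0.46 ± 0.29 (adjusted p = 0.163), so SG does not check the label either. What lies behind these FLO11 levels was not tested. The arrays are called here by their labels. Some genes named below lost their call or moved by over 1.5 times with wild-type SD liquid as the glucose group. Their values from that setting are given as well, though the listing may not be complete.

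Across all 5449 genes, 379 rose in SG (6.96%) and 169 fell (3.1%), 69.2% of the 548 being higher. Quantile normalisation gave 280 and 241 (53.7% higher), and it moved the median change of all genes from 0.05 to -0.04. By adjusted p alone, with no fold threshold, 1709 genes were higher (31.4%) and 1384 lower (25.4%). The 3 SG and 3 SD values did not overlap for 537 of the 548, but a call already favours genes with separate values. The share without overlap over all genes is not given here, so this count adds no support to the calls. Of the genes that rose, 28 were below background on all 3 SD arrays, while 0 of those that fell were below it on all 3 SG arrays. Changes beyond 4 on the log2 scale were seen for 27 genes that rose and 4 that fell. With wild-type SD liquid as the glucose group, 419 rose and 199 fell. Counts for gene lists below are to be read beside the 6.96% of all genes that rose and the 3.1% that fell. For the autophagy, phosphate, filamentation MAP kinase, pheromone response and cell wall integrity lists the share of rises lay near 6.96%. The median standard deviation within groups was 0.156 log2. The 3 wild-type SG liquid arrays, used below as a comparison, stood apart from the other SG groups in stress and ribosome genes, and replicate C among them lay farthest from its group (root mean square 0.313 log2, against 0.093 to 0.213 on the 6 arrays described).

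**Figure D1:**
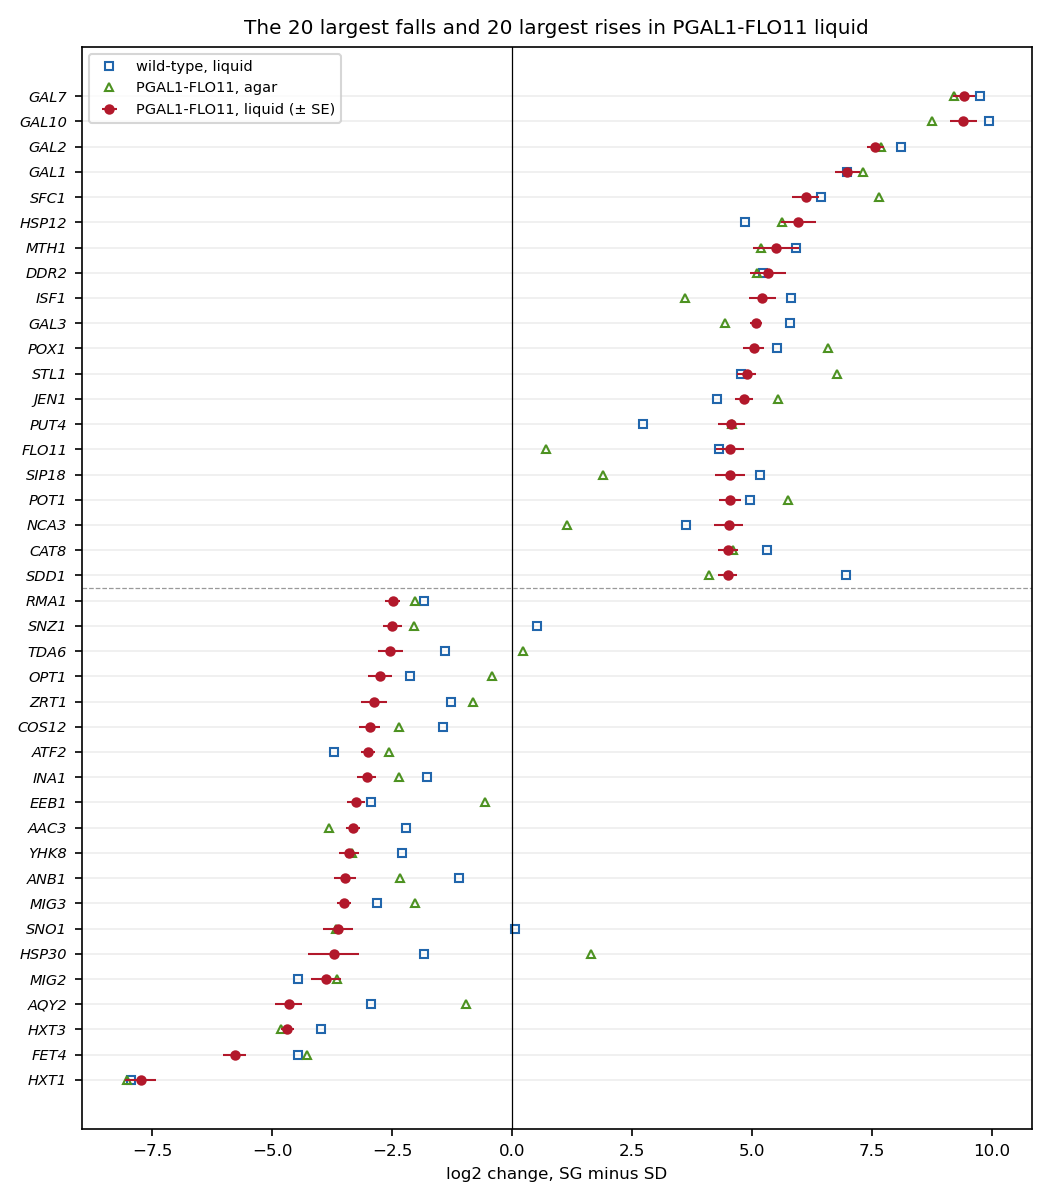
Log2 change from SD to SG (x axis) for the 20 genes with the largest rises and the 20 with the largest falls in PGAL1-FLO11 liquid (circles, bars ± 1 standard error, n = 3 arrays a group), with the changes in wild-type liquid (squares) and PGAL1-FLO11 agar (triangles). Only called genes with a standard name whose SG and SD arrays did not overlap were ranked. Fitted changes are drawn also for genes below background in SD, for which only a bound holds; GAL7 and GAL10 lead the rises and HXT1 leads the falls, and for SNO1 and SNZ1 the wild-type squares lie near 0.

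The galactose genes gave the largest rises. Of the 7 pathway genes measured, 5 rose and 0 fell, with a median log2 change of 6.99 beside 0.05 over all genes. GAL10 (YBR019C), the epimerase of the pathway, read 15.26, 15.26 and 15.21 in SG and 5.75, 5.95 and 5.83 in SD, which was below background on every SD array and at least 548-fold higher in SG (adjusted p = 3.84e-39). GAL7 (YBR018C), the uridylyltransferase, read 14.81, 14.87 and 14.86 in SG and 5.58, 5.21 and 5.52 in SD and was at least 416-fold higher. Both were thus not above background in SD, and in SG they were among the brightest genes of the array. GAL1 (YBR020W), the galactokinase, kept a detectable SD level and rose with the values above. GAL7, GAL10 and GAL1 lie next to each other in the RefSeq annotation of assembly R64. The permease gene GAL2 (YLR081W) read 14.85, 15.14 and 14.97 in SG and 7.56, 7.47 and 7.25 in SD, a change of 7.56 ± 0.18. For each of these 4 genes the 3 SG arrays lay closer together than the 3 SD arrays.

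The enzymes that hand galactose on to glycolysis moved less. PGM2, the main phosphoglucomutase, read 12.53, 12.68 and 13.20 in SG and 10.72, 10.48 and 10.02 in SD and rose by 2.40 ± 0.35 (adjusted p = 3.35e-08). Its sister PGM1 read 12.28, 12.58 and 12.45 in SG and 12.80, 12.82 and 12.99 in SD, a log2 change of -0.44 ± 0.09, short of 2-fold. UGP1, the UDP-glucose pyrophosphorylase that serves glycogen as well, changed by 0.10 ± 0.16 (adjusted p = 0.602). In wild-type liquid PGM2 changed by 5.12 ± 0.35 and UGP1 by 1.51 ± 0.16. The difference between the genotypes in liquid was -2.72 ± 0.49 for PGM2 and -1.41 ± 0.22 for UGP1. With the wild-type effect taken from agar the values were -0.95 ± 0.49 (adjusted p = 0.148) and -0.72 ± 0.22 (adjusted p = 0.0092), neither of which was called. Here and below, that setting compares PGAL1-FLO11 in liquid with wild-type on agar, so genotype and growth surface cannot be told apart in it.

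Both measured genes of the switch rose, and GAL4 was not measured. GAL3, the sensor that frees Gal4, read 13.45, 13.45 and 13.44 in SG and 8.33, 8.30 and 8.49 in SD and rose by 5.07 ± 0.12. GAL80, the inhibitor, was already high in SD and read 13.48, 13.72 and 13.49 in SG and 12.20, 12.04 and 12.06 in SD, a rise of 1.46 ± 0.12. Of 5 other genes that Gal4 is known to bind, 4 rose and 0 fell (median 1.93). MTH1, a co-repressor of hexose transporter genes, read 12.37, 12.30 and 12.14 in SG and 6.64, 6.63 and 7.05 in SD and rose by 5.50 ± 0.47. GCY1, an aldo-keto reductase, rose by 3.79 ± 0.20, PCL10, a Pho85 cyclin that acts in glycogen control, by 1.93 ± 0.10, and FUR4, the uracil permease, by 1.27 ± 0.22. LAP3, an aminopeptidase, changed by 0.86 ± 0.09 and missed 2-fold. With wild-type SD liquid as the glucose group the FUR4 change was 0.82, under 2-fold. On agar the same 5 genes gave 4 rises, and in wild-type liquid 5.

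**Figure D2:**
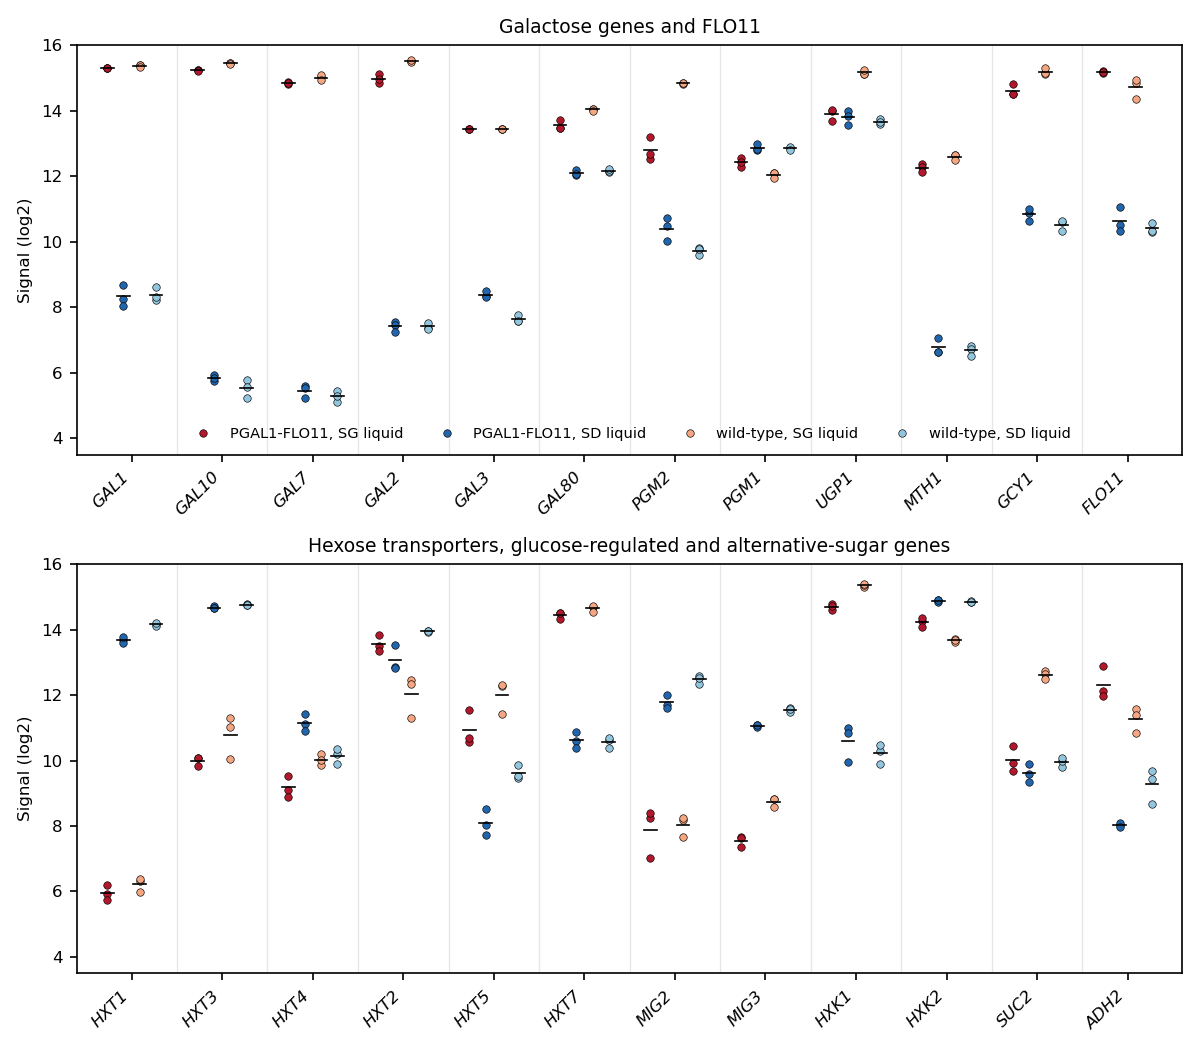
Log2 expression level (y axis) on each array, as dots, for galactose and switch genes with FLO11 (top) and for hexose transporters, repressors and other glucose-regulated genes (bottom), in PGAL1-FLO11 and wild-type, SG and SD liquid; black bars are means of 3 arrays. GAL1, GAL7, GAL10 and GAL2 sit near 15 in SG in both genotypes, HXT1 falls to the background in PGAL1-FLO11 SG, and SUC2 is high in wild-type SG only among the 4 groups drawn.

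Transporter genes split in both directions. Of 12 hexose transporter genes measured, 4 rose and 3 fell (median -0.07). HXT1, the low-affinity transporter made at high glucose, read 5.91, 6.18 and 5.74 in SG and 13.68, 13.59 and 13.78 in SD, the largest fall among genes with a standard name, -7.74 ± 0.33 (adjusted p = 7.71e-31), and was above background on 2 of the 3 SG arrays. HXT3, also of low affinity, read 9.85, 10.07 and 10.07 in SG and 14.71, 14.65 and 14.66 in SD and fell by 4.68 ± 0.14 on the log2 scale. HXT4 read 9.54, 9.11 and 8.90 in SG and 11.42, 11.11 and 10.90 in SD, a change of -1.96 ± 0.48 (adjusted p = 4.17e-04). These 3 genes had no overlap between SG and SD. In wild-type liquid HXT4 changed by -0.12 ± 0.48, and with wild-type SD as the glucose group its change here was -0.97, no longer called. The high-affinity HXT7, whose probes may also read its near-identical neighbour HXT6, read 14.51, 14.34 and 14.50 in SG and 10.88, 10.60 and 10.38 in SD and rose by 3.83 ± 0.37. HXT5, a transporter of slow-growing cells, rose by 2.84 ± 0.23, or by 1.32 from wild-type SD. HXT8 and HXT13, which were below background in SD, were at least 2.09-fold and at least 1.2-fold higher in SG. The 2-fold call of HXT13 among the 4 rises thus rests on SD values below background. HXT2 changed by 0.48 ± 0.19, short of 2-fold, where wild-type changed by -1.91 ± 0.19. That difference was 2.39 ± 0.28 (adjusted p = 2.91e-11), or 1.36 ± 0.28 (adjusted p = 1.12e-04) against the wild-type effect on agar.

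Among 7 genes of glucose sensing and induction, 1 rose and 1 fell. SNF3, the high-affinity sensor, rose by 1.39 ± 0.19. STD1, the sister of MTH1 in repressing transporter genes, fell, with a log2 change of -2.15 ± 0.12. RGT2, the low-affinity sensor, changed by -0.53 ± 0.11, under 2-fold. The paired co-repressor genes MTH1 and STD1 thus moved in opposite directions.

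The repressor genes of the Mig family also differed from each other. MIG2 read 8.23, 8.41 and 7.03 in SG and 11.71, 11.61 and 12.00 in SD, a change of -3.88 ± 0.31, and MIG3 read 7.36, 7.67 and 7.64 in SG and 11.07, 11.01 and 11.08 in SD, a change of -3.50 ± 0.15. Both fell with no overlap, while MIG1 changed by 0.89 ± 0.19 without reaching 2-fold. Of 16 measured genes of glucose repression and the Snf1 kinase, 2 rose and 2 fell, and the median of -0.01 became 0.34 with wild-type SD as the glucose group. HXK1, the hexokinase repressed by glucose, rose by 4.10 ± 0.49, and HXK2, the hexokinase that acts in repression, changed by -0.65 ± 0.05. REG2, a regulatory subunit of the Glc7 phosphatase, rose by 2.84 ± 0.19. NRG1, a repressor of glucose-repressed and filamentation genes, changed by -0.30 ± 0.29 in liquid and by 2.99 ± 0.29 on agar. The test of that difference gave -3.29 ± 0.40 (adjusted p = 2.18e-09).

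SUC2, invertase, is a standard readout of derepression. It read 9.69, 10.46 and 9.92 in SG and 9.89, 9.59 and 9.35 in SD, a change of 0.41 ± 0.23 (adjusted p = 0.112), and the groups overlapped. Wild-type read 12.73, 12.65 and 12.48 in SG and changed by 2.66 ± 0.23. In liquid the genotypes differed by -2.25 ± 0.32 (adjusted p = 1.16e-08). Against the wild-type effect on agar, where growth surface differs too, the value was -2.28 ± 0.32 (adjusted p = 1.80e-07). PGAL1-FLO11 in liquid differed from its own agar effect by -2.03 ± 0.32 (adjusted p = 8.04e-07). Of 7 genes for other sugars, 2 rose, the maltase gene MAL32 by 2.96 ± 0.15 and the permease gene MAL31 by 1.05 ± 0.29. MAL32 shares probes with a near-identical copy, and MAL31 was not called without SG replicate B (0.92) or without SD replicate B (0.95). In wild-type liquid 6 of the 7 rose, and 6 differed between the genotypes, all lower in PGAL1-FLO11. Against the wild-type effect on agar 2 were lower.

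Glycolysis and fermentation genes gave few calls. Of 13 glycolytic genes 0 passed both criteria and 10 were lower by adjusted p alone, with a median change of -0.24. All 9 fermentation genes were lower by adjusted p, and 2 fell at least 2-fold. ADH5, an alcohol dehydrogenase, fell with a change of -1.98 ± 0.17 and ALD6, the cytosolic acetaldehyde dehydrogenase, with -1.39 ± 0.20. With wild-type SD as the glucose group ADH5 changed by -0.99 and was not called. The background for these counts is the 31.4% of genes higher and 25.4% lower by adjusted p alone.

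Most genes for using ethanol, acetate and glycerol rose. Of 14 measured, 9 rose and 0 fell, 1 being lower by adjusted p alone, with a median of 2.32. JEN1, the lactate and pyruvate permease, read 13.03, 13.04 and 13.57 in SG and 8.61, 8.21 and 8.33 in SD and rose by 4.83 ± 0.19. ADH2, the alcohol dehydrogenase that consumes ethanol, read 12.12, 11.97 and 12.88 in SG and 8.03, 8.08 and 7.97 in SD, a rise of 4.30 ± 0.30. In wild-type liquid ADH2 changed by 2.0 ± 0.30, and the genotypes differed in liquid by 2.30 ± 0.43 (adjusted p = 5.50e-06). Against the wild-type effect on agar the value was -0.47 ± 0.43 (adjusted p = 0.447). STL1, the glycerol importer, rose by 4.88 ± 0.20, GUT2, glycerol-3-phosphate dehydrogenase of mitochondria, by 2.60 ± 0.20, ALD4, the mitochondrial aldehyde dehydrogenase, by 2.65 ± 0.23, and CYB2, lactate dehydrogenase, by 2.19 ± 0.24. ADY2, the acetate transporter, rose by 2.45 ± 0.27, a value that was 3.06 without SG replicate A and 1.71 without SG replicate C. The mean level of the 14 genes was 12.00, 12.07 and 12.57 in SG and 10.26, 10.16 and 10.01 in SD. On agar the same list gave 9 rises and in wild-type liquid 11 rises and 1 fall.

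Gluconeogenesis and the glyoxylate cycle, which build sugar from such compounds, moved with them. Of 15 genes 9 rose and 0 fell (median 1.99). SFC1, the succinate-fumarate carrier, read 11.44, 11.80 and 12.23 in SG and 5.85, 5.56 and 5.70 in SD and was at least 51.1-fold higher in SG. ICL1, isocitrate lyase, read 12.43, 11.71 and 12.82 in SG and 8.47, 8.38 and 8.21 in SD and rose by 3.97 ± 0.20. CAT8, an activator of this pathway, read 10.32, 10.07 and 10.20 in SG and 5.35, 5.89 and 5.85 in SD and was at least 16.6-fold higher. SFC1 and CAT8 were below background on all 3 SD arrays. The activators ADR1 and SIP4 rose by 3.69 ± 0.29 and 1.99 ± 0.24. IDP2, the cytosolic isocitrate dehydrogenase, rose by 4.23 ± 0.15 and MLS1, malate synthase, by 2.77 ± 0.30. FBP1, fructose-1,6-bisphosphatase, rose by 2.83 ± 0.30, with 2.08 without SG replicate A and 3.45 without SG replicate B. With wild-type SD as the glucose group 10 of the 15 rose.

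Fat oxidation in the peroxisome belongs to the same group of glucose-repressed functions. Of 19 genes 9 rose and 0 fell (median 0.87). POX1, acyl-CoA oxidase, read 10.86, 10.91 and 11.02 in SG and 6.10, 5.93 and 5.65 in SD, at least 27.5-fold higher in SG. POT1, the thiolase, read 10.20, 9.97 and 10.92 in SG and 5.71, 6.14 and 5.64 in SD, at least 18.6-fold higher. CTA1, the peroxisomal catalase, rose by 2.10 ± 0.14. On agar 13 of the 19 rose, and 10 of the 19 had a smaller effect in liquid than on agar by the test of the difference (median -1.01). Against wild-type liquid 8 were lower, or 4 with the wild-type effect from agar.

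Mitochondrial respiration genes shifted by small amounts and in one direction. Of 17 genes of the citric acid cycle 6 rose and 16 were higher by adjusted p alone (median 0.78). LSC2, a subunit of succinyl-CoA ligase, rose by 2.07 ± 0.12, MDH1, malate dehydrogenase, by 1.36 ± 0.11, and KGD2, of the ketoglutarate dehydrogenase complex, by 1.14 ± 0.06. CIT3, a mitochondrial citrate synthase, rose by 1.87 ± 0.16, and the succinate dehydrogenase genes SDH2 and SDH4 by 1.31 ± 0.12 and 1.26 ± 0.14, though from wild-type SD these 2 changed by 0.82 and 0.71. Of 23 respiratory chain genes 5 rose and 21 were higher by adjusted p alone (median 0.63). The count of 5 was 3 under quantile normalisation or median centring and 8 without SD replicate C. QCR6, of complex III, rose by 1.72 ± 0.17, and NDI1 and NDE2, the internal and an external NADH dehydrogenase, by 1.36 ± 0.11 and 1.20 ± 0.13. COX13, of cytochrome oxidase, was at 1.06 ± 0.12, not called without SD replicate A at 0.83, and QCR2, of complex III, at 1.0 ± 0.06, not called without SG replicate A at 0.98, SD replicate A at 0.92 or SD replicate B at 0.98. Of 14 ATP synthase genes 7 rose and all 14 were higher by adjusted p alone (median 0.99), ATP14, ATP7, ATP4 and ATP3 by 1.44, 1.28, 1.27 and 1.14. HAP4, the activating subunit of the Hap complex that drives these genes, rose by 1.37 ± 0.21, as 1 of 5 Hap genes. HAP1, the heme-dependent activator, changed by -0.70 ± 0.10.

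The mitochondrial translation machinery shifted alongside. Of 68 mitochondrial ribosomal protein genes 27 rose, 0 fell and all 68 were higher by adjusted p alone (median 0.86). Their mean level was 11.89, 11.77 and 11.59 in SG and 10.71, 10.92 and 11.03 in SD, without overlap. MRPL16 rose by 1.29 ± 0.15 and RSM27 by 1.39 ± 0.18. Many members lay near 2-fold, and the count was 19 under quantile normalisation, 16 under median centring, 16 without SG replicate A, 14 without SD replicate A and 9 with wild-type SD as the glucose group. The medians under those 5 settings ran from 0.69 to 0.81. In wild-type liquid 10 of the 68 rose and on PGAL1-FLO11 agar 5, both below the shares of all genes, 17.1% and 10.4%. In the test of the difference from wild-type liquid 0 were higher and 1 lower, or 0 and 0 with the wild-type effect from agar. Of 128 cytosolic ribosomal protein genes 0 passed both criteria (median -0.06), 2 being higher and 38 lower by adjusted p alone.

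**Figure D3:**
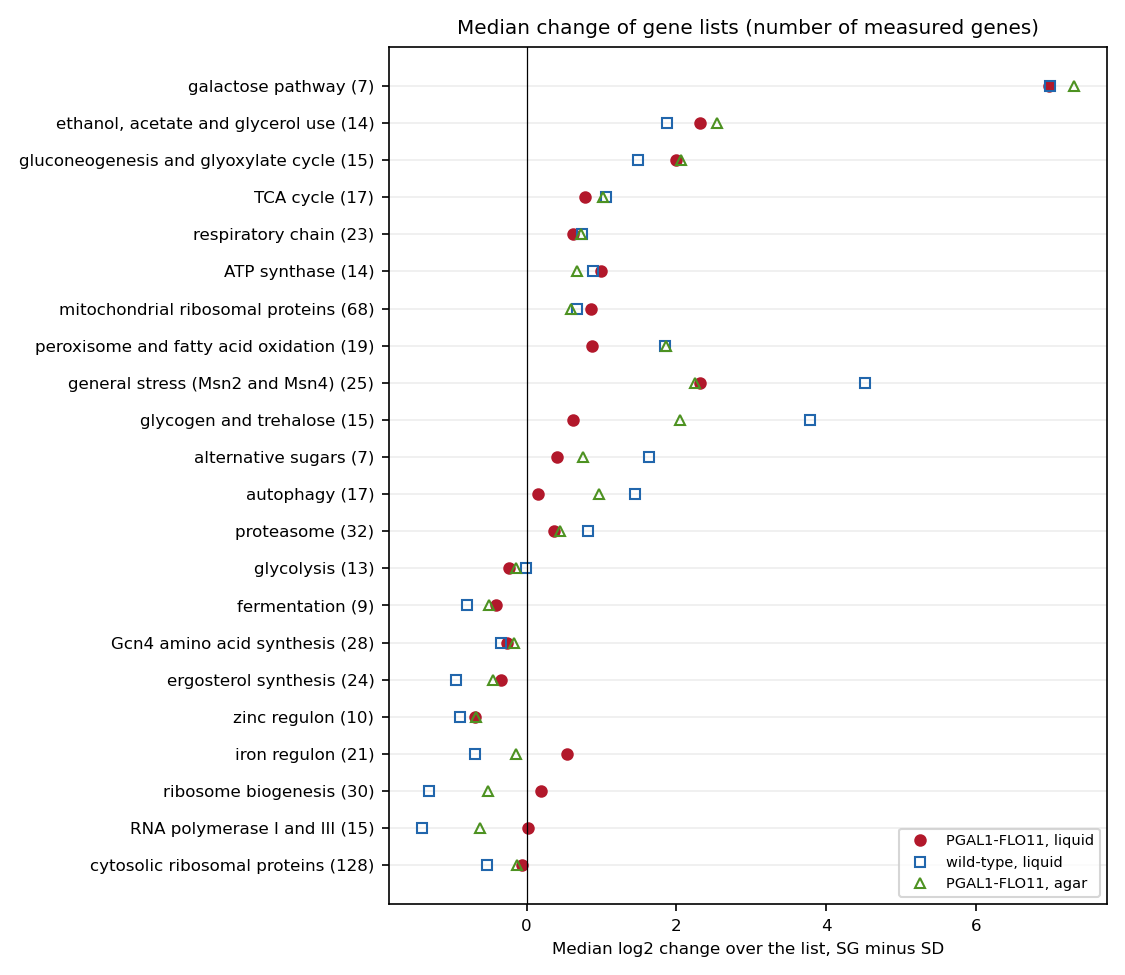
Median log2 change from SD to SG (x axis) of 22 gene lists in PGAL1-FLO11 liquid, wild-type liquid and PGAL1-FLO11 agar, each symbol being the median over the list's measured genes, with no error drawn. Ethanol use, gluconeogenesis and general stress lie to the right of 0 in all 3 comparisons. For general stress the wild-type liquid median lies apart from the other symbols. For glycogen and ribosome biogenesis the 3 symbols are spread out, with PGAL1-FLO11 agar between the liquid comparisons.

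Most stress genes rose, with unequal replicates. Of 25 genes known as targets of the stress activators Msn2 and Msn4, 18 rose and 0 fell, 1 being lower by adjusted p alone (median 2.32). HSP12, a small membrane-protecting heat shock protein, read 14.98, 13.95 and 15.02 in SG and 9.05, 8.75 and 8.26 in SD and rose by 5.96 ± 0.37. DDR2, a multistress protein, read 13.72, 13.60 and 14.15 in SG and 9.15, 8.56 and 7.78 in SD, a rise of 5.32 ± 0.37. SG replicate B was the lowest of the 3 SG arrays for both, although far above SD. The pattern was wider in SIP18, a hydrophilin, which read 11.50, 9.16 and 11.65 in SG and 6.14, 6.34 and 6.2 in SD, and in GRE1, another hydrophilin, which read 12.14, 10.13 and 13.24 in SG and 7.62, 7.36 and 7.45 in SD. SIP18 rose by 4.54 ± 0.32, or by 5.35 without SG replicate B. GRE1 rose by 4.37 ± 0.31, or by 5.22 without SG replicate B and 3.66 without SG replicate C. TKL2, a transketolase of the stress response, rose by 4.04 ± 0.31 and by 4.77 without SG replicate B. HSP26, a small chaperone below background in SD, was at least 7.53-fold higher. Its fitted change was 3.22, and 3.91 without SG replicate B. The mean of the 25 genes was 11.88, 11.31 and 12.43 in SG and 9.92, 9.84 and 9.43 in SD, so the groups did not overlap.

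The same stress genes stood far higher in wild-type SG liquid, at a mean of 13.92, 13.90 and 14.07, with 9.50, 9.76 and 9.81 in wild-type SD. There 24 of 25 rose, and 19 were lower and 1 higher in the test of PGAL1-FLO11 against wild-type. Wild-type SG agar lay at 10.58, 11.08 and 11.09, below both liquid SG groups, so the wild-type SG liquid arrays lay above every other group of the plot by array. With the wild-type effect taken from agar, 3 were lower and 9 higher in PGAL1-FLO11 liquid, and the median difference went from -2.30 to 0.21. What sets these arrays apart was not tested. Differences from wild-type liquid are therefore given also with the wild-type effect on agar. In that setting the growth surface differs along with the genotype.

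**Figure D4:**
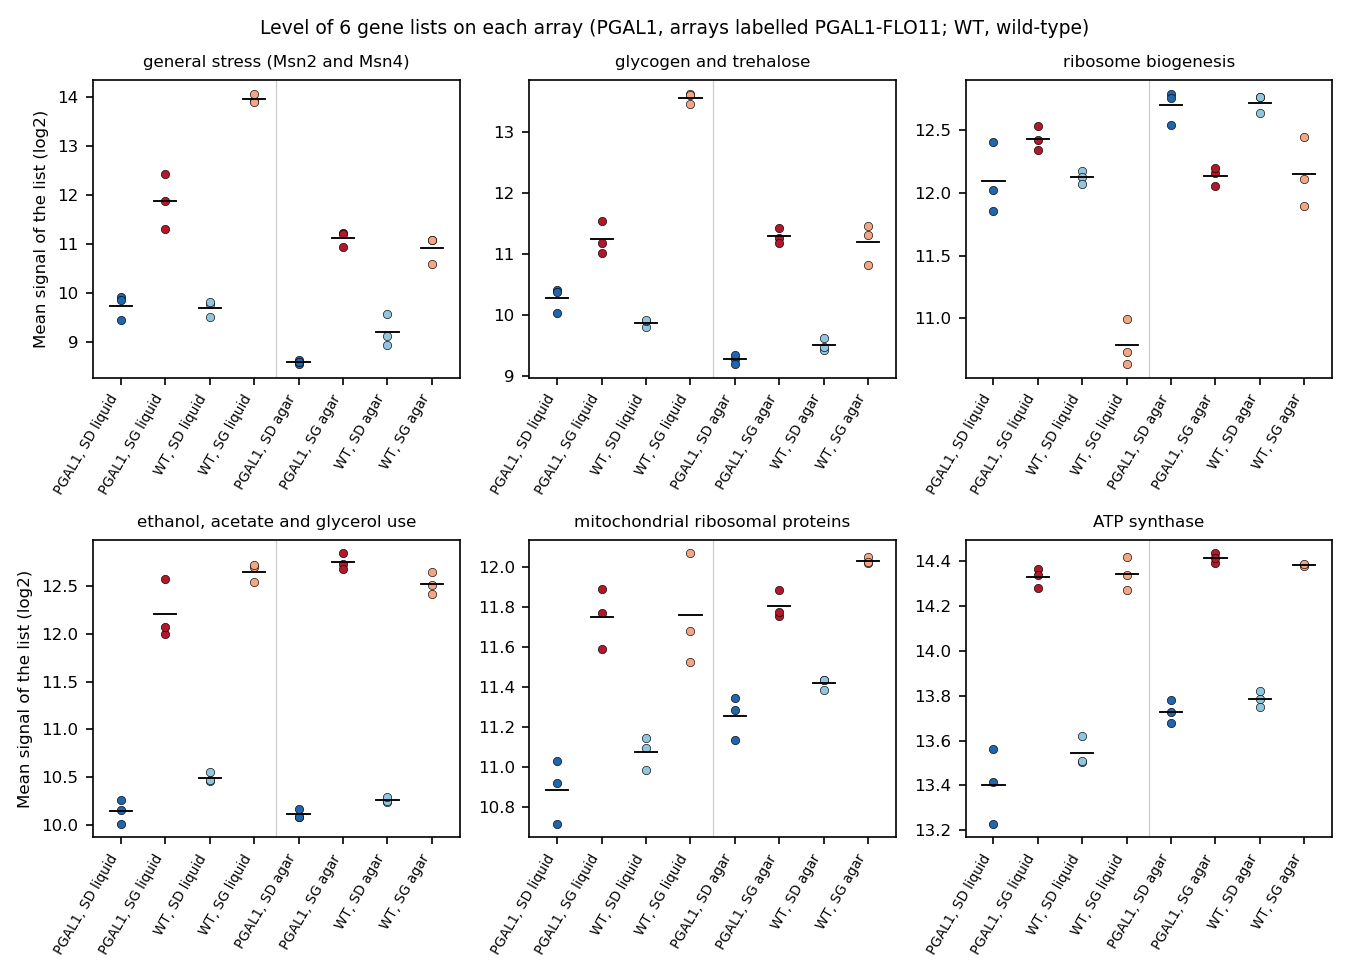
Mean log2 level of the genes of 6 lists (y axis) on each array, as dots, in PGAL1-FLO11 and wild-type grown in SG or SD, liquid or agar (3 arrays a group). For general stress and glycogen genes the 3 wild-type SG liquid arrays are the highest and for ribosome biogenesis the lowest, while ethanol use, mitochondrial ribosomal protein and ATP synthase genes separate SG from SD in PGAL1-FLO11 liquid without overlap.

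Glycogen and trehalose genes, which make and break storage carbohydrate, moved less than in the other comparisons. Of 15 genes 5 rose and 0 fell (median 0.62), against 11 on agar and 14 in wild-type liquid. GSY1, glycogen synthase, read 10.34, 10.98 and 11.47 in SG and 9.62, 9.57 and 9.10 in SD, a rise of 1.5 ± 0.40 (adjusted p = 0.00121). In wild-type it changed by 6.5 ± 0.40, a difference of -5.00 ± 0.57 (adjusted p = 1.89e-11), or -2.33 ± 0.57 (adjusted p = 0.00113) with the wild-type effect on agar. The phosphorylase gene GPH1 rose by 3.94 ± 0.40 and differed from wild-type liquid by -2.83 ± 0.57, but from the wild-type effect on agar by 0.57 ± 0.57 (adjusted p = 0.481). GAC1, which directs a phosphatase to glycogen synthase, rose by 2.80 ± 0.26, GDB1, the debranching enzyme, by 1.36 ± 0.15, and GSY2, the second synthase, by 1.23 ± 0.28. TPS3, of the trehalose synthase complex, changed by -0.62 ± 0.14, below 2-fold. Of the 15 genes 14 had a lower effect than in wild-type liquid (4 with the wild-type effect from agar), and 7 a lower effect than on agar (median difference -0.71).

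Chaperone genes were mixed. Of 18 heat shock genes 3 rose, 0 fell and the median was 0.38. SSA1 and SSE2, Hsp70-family chaperones, rose by 1.51 ± 0.29 and 1.47 ± 0.35. The third, SSA4, rose by 1.08 ± 0.43 and was not called without SG replicate A (0.97), SD replicate A (1.09) or SD replicate B (1.05). HSP42, a small heat shock protein, read 11.19, 11.18 and 12.11 in SG and 12.42, 12.40 and 12.06 in SD, a change of -0.80 ± 0.46 (adjusted p = 0.13). In wild-type liquid it changed by 3.64 ± 0.46 and on agar by 4.03 ± 0.46. The differences were -4.44 ± 0.65 from wild-type liquid, -3.90 ± 0.65 from wild-type agar and -4.83 ± 0.65 from PGAL1-FLO11 agar, each with an adjusted p of at most 4.79e-06. Of 13 genes named for stationary phase, 6 rose and 3 fell (median 0.63), with SPG4 at least 14.4-fold higher and SNZ1, SNO1 and HSP30 lower. Of 17 autophagy genes 1 rose, 1 fell and the median of 0.15 became -0.04 under quantile normalisation. ATG17, a scaffold of autophagy initiation, was at least 2.14-fold higher. ATG15, a vacuolar lipase, fell with a change of -1.02 ± 0.40 and was not called without SG replicate B (-0.53) or SD replicate A (-0.79).

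Genes for making ribosomes did not fall in SG. Of 30 ribosome biogenesis genes 4 rose and 0 fell (median 0.19), with levels of 12.54, 12.34 and 12.42 in SG and 11.86, 12.03 and 12.41 in SD. EBP2, a nucleolar assembly factor, rose by 1.32 ± 0.33, which was 0.96 with wild-type SD as the glucose group. The other rises were MAK16, a pre-60S factor, at 1.14 ± 0.31, not called without SD replicate A at 0.95, SSF1, of the same pathway, at 1.08 ± 0.33, not called without SG replicate A at 0.88 or SD replicate A at 0.91, and UTP14, of the small-subunit processome, at 1.02 ± 0.30, not called without SG replicate A at 0.94, SG replicate C at 0.99, SD replicate A at 0.87 or SD replicate B at 0.94. The count of 4 was 1 under quantile normalisation, 2 without SG replicate A, 1 without SD replicate A and 0 with wild-type SD. In wild-type liquid 24 of the 30 fell, and 29 were higher in the test of the difference (median 1.67). With the wild-type effect from agar 9 were higher (median 0.87), and 9 were higher against PGAL1-FLO11 agar. Of 15 genes of RNA polymerases I and III 0 passed both criteria here (5 higher and 2 lower by adjusted p alone, median 0.02, of opposite sign under quantile normalisation or median centring), and 11 fell in wild-type liquid. The difference was higher for 14 of the 15, or for 5 with the wild-type effect from agar.

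Among the largest falls were membrane transporters and genes of low oxygen. FET4, the low-affinity iron transporter, read 5.81, 5.90 and 5.42 in SG and 11.86, 11.77 and 10.84 in SD, a change of -5.78 ± 0.24. It was above background on 1 of the 3 SG arrays, so its SG level lay at the limit of detection and the size of the fall is uncertain. AQY2, an aquaporin, read 7.60, 7.31 and 7.59 in SG and 12.43, 12.05 and 11.99 in SD, a change of -4.66 ± 0.29. In wild-type liquid AQY2 changed by -2.93 ± 0.29 and on agar by -0.97 ± 0.29, and in SD it was 2.20 ± 0.29 above wild-type (adjusted p = 2.43e-08). ANB1, the hypoxic form of translation factor eIF5A, read 8.62, 8.42 and 8.34 in SG and 12.59, 12.43 and 10.82 in SD, a change of -3.49 ± 0.23, with SD replicate C the lowest of its group. AAC3, the ADP/ATP carrier of anaerobic cells, changed by -3.31 ± 0.14. Of 18 low-oxygen genes 6 fell and 1 rose (median -0.14). HEM13, of heme synthesis, changed by -1.38 ± 0.17, and the cell-wall mannoprotein genes TIR3 and TIR4 by -1.73 ± 0.24 and -1.17 ± 0.16. TIR2, of the same family, was at -1.27 ± 0.18, not called without SD replicate A at -0.99, and the rise was SUT1, a regulator of sterol uptake, at 1.20 ± 0.19. With wild-type SD as the glucose group 3 fell and 3 rose, and HEM13 (-0.85), TIR3 (-0.86), TIR2 (-0.97) and SUT1 (0.61) were no longer called.

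HSP30, a plasma-membrane stress protein, read 12.11, 9.23 and 9.37 in SG and 13.89, 13.96 and 14.01 in SD, with SG replicate A well above the other two. It fell, with a change of -3.72 ± 0.54, or -4.65 without SG replicate A. On agar it changed in the other direction, by 1.65 ± 0.54, and the difference was -5.37 ± 0.76 (adjusted p = 7.72e-08). SNO1 and SNZ1, neighbours that act in vitamin B6 synthesis, read 8.51, 8.73 and 8.89 in SG and 12.76, 12.44 and 11.82 in SD for SNO1 and 11.52, 11.59 and 12.14 in SG and 14.40, 14.39 and 13.95 in SD for SNZ1. Both fell, with log2 changes of -3.63 ± 0.31 and -2.50 ± 0.20. They were high in PGAL1-FLO11 SD compared with wild-type SD, by 3.07 ± 0.31 and 2.32 ± 0.20. Against wild-type SD liquid the changes were -0.56 and -0.17, neither called, and in wild-type itself they were 0.06 ± 0.31 and 0.52 ± 0.20. On agar SNO1 changed by -3.67 ± 0.31. EEB1 and ATF2, which make and modify fermentation esters, fell with changes of -3.25 ± 0.18 and -3.00 ± 0.14, and OPT1, the oligopeptide transporter, with -2.74 ± 0.25. Other large falls among genes with a standard name were YHK8 (-3.41), INA1 (-3.03), COS12 (-2.97), TDA6 (-2.54) and RMA1 (-2.49).

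Metal and nutrient genes moved in different directions. ZRT1, the high-affinity zinc transporter, read 9.58, 9.54 and 10.03 in SG and 13.21, 12.90 and 11.68 in SD and fell, with a change of -2.88 ± 0.27. Of 10 zinc genes 4 fell and 0 rose (median -0.68), a count of 2 without SD replicate A. The others were ZRT2, the low-affinity transporter, at -1.02 ± 0.15, not called without SG replicate C at -0.95 or SD replicate A at -0.94, IZH2, a zinc-regulated membrane protein, at -1.13 ± 0.22, not called without SG replicate B at -0.91, and ZPS1, a wall protein of zinc-poor cells, at -1.05 ± 0.19, not called without SG replicate A at -0.98 or SD replicate A at -0.92. Of 21 iron genes 6 rose and 1 fell (median 0.54). FIT2, a cell-wall protein that holds iron-siderophores, read 14.22, 13.61 and 12.62 in SG and 11, 10.56 and 11.13 in SD and rose by 2.59 ± 0.47, and its relative FIT3 rose by 2.36 ± 0.18. ARN1, a siderophore transporter, read 14.06, 13.62 and 13.45 in SG and 11.87, 11.59 and 12.37 in SD and rose by 1.77 ± 0.27, against -1.37 ± 0.27 in wild-type. The difference was 3.14 ± 0.38 (adjusted p = 1.25e-10), or 1.70 ± 0.38 (adjusted p = 3.96e-04) with the wild-type effect from agar. SIT1, another transporter, rose by 1.28 ± 0.30 and HMX1, heme oxygenase, by 1.10 ± 0.17. FRE5, a putative ferric reductase, was at 1.02 ± 0.20, not called without SG replicate A at 0.49 or SD replicate B at 0.99, and the fall was ENB1, the enterobactin transporter, at -1.07 ± 0.17, not called without SG replicate C at -0.89 or SD replicate C at -0.88. With wild-type SD as the glucose group 3 iron genes rose and 2 fell, and ARN1 (0.85), SIT1 (0.47) and HMX1 (0.96) missed 2-fold.

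Of 23 sulfur and methionine genes 1 rose and 2 fell (median -0.29). SUL1, the sulfate permease, rose by 1.73 ± 0.19, with a difference from wild-type of 2.82 ± 0.27, or 1.68 ± 0.27 with the wild-type effect from agar. In SD it was lower than in wild-type SD, with a difference of -1.70 ± 0.19, and its change from wild-type SD was 0.03. The falls were MUP3, a low-affinity methionine permease, at -1.20 ± 0.26, and STR3, cystathionine beta-lyase, at -1.21 ± 0.30, not called without SG replicate A at -0.84 or SD replicate A at -0.99. With wild-type SD as the glucose group MUP3 was at -0.98, STR3 turned to 0.061, and 0 of the 23 rose or fell. Of 25 genes under nitrogen catabolite repression 6 rose and 0 fell (median 0.30, and -0.03 with 3 rises and 1 fall from wild-type SD). PUT4, the proline permease, read 11.96, 11.85 and 12.89 in SG and 7.93, 7.58 and 7.51 in SD and rose by 4.56 ± 0.28. Its SD level was -1.92 ± 0.28 relative to wild-type SD, and from wild-type SD it rose by 2.64. GDH3, a glutamate dehydrogenase, rose by 2.19 ± 0.18. DAL80, a repressor of nitrogen genes, rose by 1.44 ± 0.39, but changed by -0.43 from wild-type SD. PUT1, proline oxidase, was at 1.12 ± 0.29, not called without SG replicate C at 0.78 or SD replicate B at 0.99, and turned to -0.32 from wild-type SD. Of the allantoin genes, DAL3 was at 1.03 ± 0.22, not called without SG replicate B at 0.97 or SD replicate C at 0.82, and DAL4, the permease, at 1.02 ± 0.41, not called without SG replicate C at 0.67 or SD replicate C at 0.74. Of 28 amino acid synthesis genes under Gcn4, 0 passed both criteria and 20 were lower by adjusted p alone (median -0.26, and 0.02 from wild-type SD). The phosphate list gave 1 rise and 0 falls of 16 (median -0.34), the rise being PHO84, the phosphate permease, at 1.13 ± 0.30, not called without SG replicate C (0.99) or SD replicate C (0.98). The ergosterol list gave 2 falls and 0 rises of 24 (median -0.34, with 19 lower by adjusted p alone). They were HMG2, an HMG-CoA reductase, at -1.04 ± 0.17, not called without SG replicate B at -0.98 or SD replicate A at -0.86, and ERG24, sterol C-14 reductase, at -1.02 ± 0.09, not called without SD replicate A at -0.95.

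Filamentation genes were examined because FLO11 is a target of that pathway. Of 13 genes of the MAP kinase pathway, 1 rose, near the 6.96% over all genes, and 0 fell (median 0.21). The gene that rose was TEC1, a transcription factor of the pathway. It read 11.61, 11.88 and 11.48 in SG and 10.07, 10.08 and 10.09 in SD and rose by 1.58 ± 0.13 with no overlap. KSS1, the kinase, changed by 0.63 ± 0.10, STE12, the partner of Tec1, by 0.40 ± 0.13, and MSB2, the signalling mucin, by 0.90 ± 0.19, all under 2-fold. Of 13 target genes 4 rose and 1 fell (median 0.07, which was -0.02 under quantile normalisation and -0.01 under median centring). CLN1, a G1 cyclin, rose by 1.39 ± 0.14, SVS1, a cell-wall protein, by 1.32 ± 0.12, and DDR48, a stress protein also induced in filaments, by 1.92 ± 0.25, with FLO11 as the fourth. The fall was MGA1, a regulator of pseudohyphal growth, at -1.12 ± 0.32, not called without SG replicate A (-0.88), SG replicate B (-0.79) or SD replicate C (-0.96). PGU1, a secreted pectinase, changed by 0.07 ± 0.19 in liquid and by 3.18 ± 0.19 on agar, a difference of -3.11 ± 0.27 (adjusted p = 2.28e-14). Of the 4 adhesin genes measured only FLO11 was called. FLO1, FLO9 and FLO10 changed by -0.61 ± 0.17, -0.48 ± 0.17 and -0.75 ± 0.20, and FLO1 and FLO9 are close copies whose probes may not separate them.

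Lists that check the cells showed small shifts. The 7 a-cell genes had a mean of 7.01 to 7.21 in SG and 7.11 to 7.37 in SD, and the 4 alpha-cell genes 7.77 to 7.93 and 8.10 to 8.49. Neither list had a gene called (medians -0.13 and -0.38, with 0 higher and 5 lower by adjusted p alone over both). The 15 sporulation genes averaged 6.21 to 6.49 in SG and 5.97 to 6.14 in SD, near the background limit. SPS4 rose by 1.61 ± 0.23 and SPO20, a membrane fusion protein, was at 1.05 ± 0.17, not called without SG replicate B at 0.87 (2 rises, 0 falls, median 0.28). The 6 auxotrophy and marker genes had no call (0 higher and 3 lower by adjusted p alone, median -0.18), with URA3 reading 4.59, 4.51 and 4.41 in SG and 4.63, 4.68 and 4.40 in SD, below background. Of 22 pheromone response genes 2 rose and 1 fell, and the median of 0.31 was -0.04 under quantile normalisation. GPA1, the G protein alpha subunit, was at 1.10 ± 0.19, not called without SG replicate B at 0.94 or SD replicate A at 0.92, AGA1, the anchor of a-agglutinin, at -1.01 ± 0.20, not called without SG replicate A at -0.90, SG replicate B at -0.95 or SD replicate A at -0.81, and PRM5 at 1.30 ± 0.27, not called without SG replicate B at 0.92, with 1.98 without SG replicate A. Of 26 cell wall integrity genes 2 rose and 0 fell (median 0.00), GSC2, a glucan synthase subunit, by 1.77 ± 0.18, and PIR3, a wall protein, by 1.76 ± 0.37, which was 2.36 without SG replicate B and 1.13 without SG replicate C. With wild-type SD as the glucose group PIR3 turned to -0.15.

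Growth genes gave modest changes. Of 17 G1/S genes 4 rose and 12 were higher by adjusted p alone (median 0.46). PCL1 and PCL2, G1 cyclins of Pho85, rose by 2.32 ± 0.25 and 1.27 ± 0.09, with CLN1 as above. The fourth was MCD1, a cohesin subunit, at 1.08 ± 0.20, not called without SG replicate A (0.97). Of 11 G2/M genes 0 were called (0 higher and 4 lower by adjusted p alone), and the median of -0.11 was 0.16 from wild-type SD. Of 12 daughter-cell genes 2 fell (median -0.26), PRY3, a wall-linked protein, with -1.77 ± 0.21, and DSE4, a daughter-cell glucanase, with -1.07 ± 0.18, not called without SG replicate C (-0.91) or SD replicate A (-1.0). The 8 histone genes had no call, with 5 higher and 0 lower by adjusted p alone (median 0.15), and likewise the 32 proteasome genes, with 27 higher and 0 lower (median 0.37). Of 11 pentose phosphate genes 4 rose, TKL2, the transaldolase NQM1 by 3.19 ± 0.24, SOL4 by 1.99 ± 0.35 and GND2, a phosphogluconate dehydrogenase, at 1.06 ± 0.22, not called without SG replicate C at 0.49 or SD replicate B at 0.98, and the median of 0.06 was -0.02 under median centring. Of 11 osmotic stress and glycerol genes 2 rose and 2 fell (median -0.19), GPP2, glycerol-phosphatase, rising by 1.94 ± 0.16 with STL1. With AQY2 fell GPD2, a glycerol-phosphate dehydrogenase, at -1.24 ± 0.27, not called without SG replicate B at -0.98.

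Some of the 20 largest rises among genes with a standard name lay outside these lists. ISF1, which acts in respiratory growth, read 10.58, 10.63 and 11.07 in SG and 5.68, 5.38 and 5.58 in SD and was at least 24.4-fold higher in SG. NCA3, of the SUN family, rose by 4.51 ± 0.30 (2.75 from wild-type SD), and by 3.36 ± 0.42 more than on agar (adjusted p = 4.22e-09). SDD1 was below background on all SD arrays and at least 10.8-fold higher in SG.

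More genes were called between the sugars in wild-type. In wild-type liquid 934 genes rose (17.1%) and 672 fell (12.3%), 58.2% of calls being higher, or 44.3% under quantile normalisation (698 and 876) and 45.7% under median centring (733 and 872). Of the 379 genes that rose in PGAL1-FLO11, 275 also rose in wild-type, which is 72.6% of the first list and 29.4% of the second. Of the 169 that fell, 97 also fell, 57.4% and 14.4% of the lists. Genes called in opposite directions numbered 5 that rose here (SUL1, ARN1, RRT14, DAL4 and UTP14) and 6 that fell here (FRT2, YRO2, SAP4, BTN2, CPD1 and SDP1). Across the 5449 genes the changes had a Pearson correlation of 0.659, given as a description since genes are not replicates. The comparisons share no array.

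The difference between the sugar effects was tested directly. It was higher in PGAL1-FLO11 for 525 genes (9.63%) and lower for 638 (11.7%), and these 1163 became 419 when the wild-type effect was taken from agar, an alternative added after the data were seen. GPM2, a phosphoglycerate mutase copy, read 9.51, 9.94 and 9.30 in SG and 10.38, 10.44 and 9.14 in SD, a change of -0.40 ± 0.32, while wild-type changed by 5.99 ± 0.32. The difference was -6.39 ± 0.46, or -2.46 ± 0.46 (adjusted p = 3.39e-05) with the wild-type effect from agar. In SG alone, 494 genes were higher in PGAL1-FLO11 than in wild-type (9.07%) and 472 lower (8.66%). In SD only 45 were higher (0.826%) and 19 lower (0.349%), 36 and 24 under median centring. The largest in SD among genes with a standard name were GPM2 at 3.45 ± 0.32, SNO1, SNZ1, AQY2 and ANB1, the last at 2.16 ± 0.23. On the lower side they were PUT4, PIR3 (-1.92 ± 0.37), DAL80 (-1.87 ± 0.39), CWP1 (-1.81 ± 0.28) and HSP12 (-1.80 ± 0.37). These contrasts share arrays with the sugar comparison and with each other, so their values are given side by side only.

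With wild-type SD liquid as the glucose group, further named genes kept their call with a value more than 1.5 times away. Among rises, HSP12 went to 4.17, DDR2 to 4.12, GRE1 to 3.47, TKL2 to 3.18, NQM1 to 2.37, ADH2 to 3.05, CYB2 to 1.59, CTA1 to 1.40 and FIT2 to 1.82, all smaller. The fitted changes of POT1 and HSP26, for which only bounds hold, went to 3.91 and 2.52. Larger were GAL3 at 5.80, PGM2 at 3.07, GSY1 at 3.14, GSY2 at 2.17, DDR48 at 3.13 and RGI1 at 2.38. Of the falls, MIG2 went to -4.60, FET4 to -4.85, AQY2 to -2.46, ANB1 to -1.33, AAC3 to -2.60, ZRT1 to -1.19, YHK8 to -2.59, COS12 to -1.55 and RMA1 to -1.88. Besides those given above, calls were lost by MAL31 (0.70), SSA4 (0.67), QCR2 (0.78), MAK16 (0.83), SSF1 (0.66), UTP14 (0.92), CGR1 (0.96), DAL3 (0.43), DAL4 (0.23), FRE5 (0.98), ZRT2 (-0.62), SPO20 (0.71), GPD2 (-0.58) and ATG15 (-0.93). HSP42 went from -0.80 to 0.34 and HXT2 from 0.48 to -0.39, with no call in either setting. Among the genes that gained a call were GPM2 (3.05), IZH4 (1.87), COX5B (1.07), CYC7 (1.26) and CWP1 (-1.95).

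**Figure D5:**
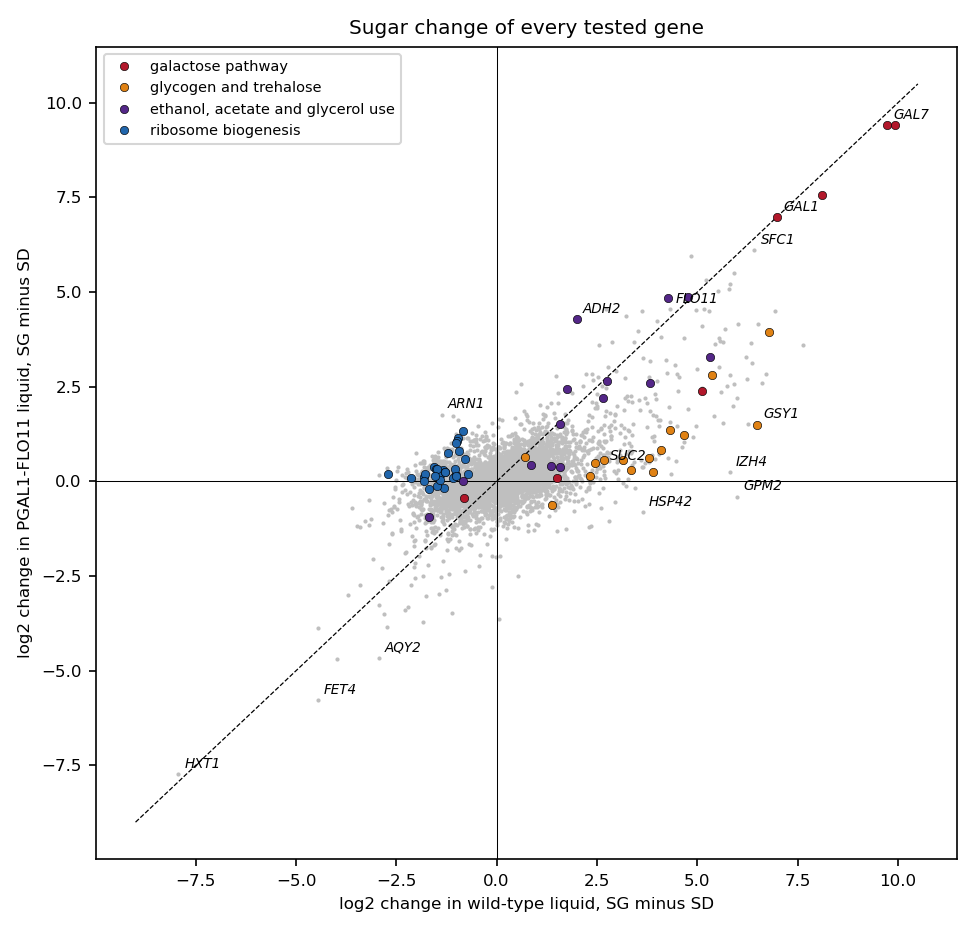
Log2 change from SD to SG in wild-type liquid (x axis) and in PGAL1-FLO11 liquid (y axis), 1 point for each of the 5449 genes, 4 gene lists coloured, dashed line at equal change. Glycogen and trehalose genes lie mostly below the dashed line, ribosome biogenesis genes above it, and most galactose genes near it at the upper right.

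Growth on agar gave the second comparison with the same genotype. There 564 genes rose (10.4%) and 231 fell (4.24%), 70.9% being higher, or 54.1% under quantile normalisation (403 and 342). Of the 379 liquid rises 238 rose on agar, 62.8% of the liquid list and 42.2% of the agar list, and of the 169 falls 74 fell, 43.8% and 32% of the lists. The effect in liquid was higher for 219 genes (4.02%) and lower for 337 (6.18%). FLO11 headed the first group with 3.83 ± 0.41 (adjusted p = 3.86e-11), its SD agar level being the 14.50 given above. BSC1, AQR1 and GRE1 followed NCA3 with 3.22, 3.21 and 3.08. In liquid itself BSC1 changed by -0.105 and AQR1 by 0.34, both under 2-fold, so their differences lay mostly in the agar change. HSP30, HSP42 and AQY2 headed the second group, followed by TOS8 (-3.64) and RGI1 (-3.36). TOS8 changed by -0.93 in liquid, while RGI1 rose there by 1.18, not called without SG replicate B at 0.998. Genes called in all 3 comparisons in the same direction numbered 220 that rose and 58 that fell, and they included GAL1, GAL2, GAL7, GAL10, GAL3, HXT1, HXT3, MIG2 and MIG3.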

How the data were processed

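RNA was measured on 90 Affymetrix arrays in 29 groups, with 3 arrays in each group compared here; the deposited values are log2 expression, made by the authors with RMA per the submitters' processing notes (version not given in the sources used here). Of 10928 probe sets, 7244 carried 1 gene symbol in the platform annotation, 1 several and 3683 none, and 5498 matched the RefSeq table of S. cerevisiae (assembly R64). Where a gene had several probe sets, which was so for 47, its brightest one stands for it, and 0 had probe sets called in opposite directions; 118 genes have probes shared with other genes.

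A group-means model over all 90 arrays was fitted in R 4.3.3 by limma 3.58.1, leaving 61 residual degrees of freedom and a prior worth 2.88, with Benjamini-Hochberg adjustment over 5449 genes. A call needs an adjusted p under 0.05 and a 2-fold change; "higher by adjusted p alone" drops the fold. An exact permutation test of 3 against 3 arrays cannot go below p = 0.1, so none is given. The number of arrays limits the precision. The replicate letters were not used to pair arrays, as deviations of same-lettered SG and SD arrays correlated at -0.28, 0.18 and -0.30. With 3 arrays a group these values cannot exclude a shared origin of same-lettered arrays.

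The comparison, the gene lists and the tests were chosen with earlier results of these data known. Named are the 20 largest rises and falls, the 10 or 5 largest of each other contrast, FLO11, the galactose, transporter, glucose-sensing, filamentation and marker lists, and up to 8 members of each other list. The largest changes were ranked among called genes with a standard name. For the 20 rises and falls the SG and SD arrays also had to be without overlap. Of the called genes, 20 that rose and 41 that fell had no standard name. Alternatives were quantile normalisation, median centring, other filters, other probe set choice, a replicate block, the compared arrays alone, and each array left out. Promoter sequences were not analysed here.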

Additional observations from a re-analysis of the deposited data

Results flagged for a closer look

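Each result here is a sugar effect that differed between groups by limma's test of the difference itself (adjusted p under 0.05 and at least 2-fold), with no explanation weighed. Against wild-type liquid 1163 genes differed, and against PGAL1-FLO11 agar 556.

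The sugar effect was higher in PGAL1-FLO11 liquid than in wild-type liquid for 10 named genes. ARN1, the siderophore transporter, differed by 3.14, AAH1, adenine deaminase, by 3.11, GFD2 by 3.08, DHR2, an RNA helicase of ribosome assembly, by 2.90 and JJJ3, a DnaJ-like protein, by 2.83. SUL1 differed by 2.82, TOD6, a repressor that binds ribosome biogenesis promoters, by 2.76, SRP40, a nucleolar protein, by 2.75, CGR1 by 2.59 and RIX7, both of 60S subunit assembly, by 2.57. In PGAL1-FLO11 liquid itself only ARN1, SUL1 and CGR1 of these rose, by 1.77, 1.73 and 1.63. The others changed by less than 2-fold, AAH1 by 0.18, GFD2 by 0.34, DHR2 by 0.19, JJJ3 by 0.37, TOD6 by 0.74, SRP40 by 0.27 and RIX7 by 0.32. For those genes most of the difference lay in the wild-type liquid change. The effect was lower for GPM2 at -6.39, IZH4 at -5.56, GSY1 at -5.00, GIP2, a regulatory subunit of Glc7, at -4.74 and HSP42 at -4.44. COX5B, the hypoxic cytochrome oxidase subunit, was lower at -4.15, SPG1 at -4.11, FMP16 at -4.04, RTN2 at -4.02 and CYC7, the minor cytochrome c, at -3.92. The setting with the wild-type effect from agar changes growth surface as well as genotype, so its calls do not separate the 2. In it the 10 higher genes were also called higher, with ARN1 at 1.70 ± 0.38, AAH1 at 2.08 ± 0.29, GFD2 at 2.26 ± 0.37, DHR2 at 1.73 ± 0.36, JJJ3 at 2.07 ± 0.33, SUL1 at 1.68 ± 0.27, TOD6 at 2.22 ± 0.39, SRP40 at 1.45 ± 0.29, CGR1 at 1.92 ± 0.55 and RIX7 at 1.02 ± 0.28. Of the 10 lower genes, GPM2 (-2.46 ± 0.46), GSY1 (-2.33 ± 0.57), HSP42 (-3.90 ± 0.65) and CYC7 (-1.21 ± 0.47) were also called lower there. RTN2 turned and was called higher, at 1.08 ± 0.32 (adjusted p = 0.00635). Not called were IZH4 at -0.93 ± 0.37 (adjusted p = 0.0502), COX5B at -0.96 ± 0.36 (adjusted p = 0.0367), GIP2 at -0.87 ± 0.36 (adjusted p = 0.0625), and, with the sign turned, SPG1 at 0.48 ± 0.23 (adjusted p = 0.102) and FMP16 at 1.09 ± 0.48 (adjusted p = 0.081).

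Against agar with the same genotype, the effect in liquid was higher for FLO11 by 3.83, NCA3 by 3.36, BSC1 by 3.22, AQR1, an exporter of short-chain acids, by 3.21 and GRE1 by 3.08. It was lower for HSP30 at -5.37, HSP42 at -4.83, AQY2 at -3.69, TOS8 at -3.64 and RGI1 at -3.36. In liquid itself BSC1 and AQR1 changed by -0.105 and 0.34, under 2-fold, while RGI1 rose by 1.18.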

How the results depend on the processing

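The 548 genes called between SG and SD in PGAL1-FLO11 liquid numbered 514 to 546 under quantile normalisation, median centring, the mean of probe sets or the fit on the compared arrays alone, and 618 with wild-type SD liquid as the glucose group, an alternative chosen after the data were seen. Leaving out 1 array gave 456 to 605. A replicate block, although no pairing by letter was seen (2 of 6 correlated best with their own letter), gave 547, with 1606 in wild-type and 1164 for the difference, and changed 0 of 408 named genes. Without the dimmest 25% of genes there were 321 calls here, 483 on agar and 36 for PGAL1-FLO11 against wild-type in SD, fewer genes being tested. With no fold threshold there were 3093 here, 4252 in wild-type, 3186 for the difference from wild-type, 3512 on agar, 1940 for the difference from agar, 1217 for the strains in SD and 3550 in SG. With the wild-type effect from agar the difference had 419 calls. Of 408 named genes 385 kept their call under quantile normalisation, 392 under median centring, 388 to 399 with 1 array left out and 348 with wild-type SD. Under the last, 36 lost their call, 20 gained 1 and 4 reversed, PIR3 (-0.15), DAL80 (-0.43), STR3 (0.061) and PUT1 (-0.32); the cause was not tested. List medians moved by more than their replicate spread for 18 of 49 lists under quantile normalisation, 14 under centring and 25 with wild-type SD. Changes near the background limit or near the top of the scale are limited by the array's range.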
